A study of Mus musculus with 29 samples.

Results

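The comparison described here set 2 RNA-seq libraries of mouse embryonic stem (ES) cells carrying Dax1 hairpin 2 against 2 control libraries, 4 of the 29 samples of the series. Samples were chosen by their titles, all gene and element features of their count table were kept, and hairpin 2 was never averaged with hairpin 1. The series, whose title concerns TRIM66, DAX1 and Dux in the 2-cell-like state, holds 20 RNA-seq libraries and 9 samples of chromatin immunoprecipitation. All 4 libraries came from ES cells of strain 129/Ola grown on gelatin in medium with 15% serum. The control group is titled CTR-shDax1 and the knockdown group Dax1-sh2. Both groups carry the same further labels, wild type genotype and untreated, so that the knockdown is given by the titles alone. The hairpin sequence, the vector, the kind of control, the time after delivery and whether the cells were a clone or a pool are not stated. The labels do not tell whether replicates were separate cultures, and p-values then measure only the spread between these libraries, which may be technical. Libraries of hairpin 1 (Dax1-sh1), 2 in number, shared the controls and the fit, and served for comparison.

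The gene Nr0b1, commonly called Dax1, codes for a nuclear receptor with no known ligand that lacks the usual DNA-binding domain. It acts mostly as a corepressor of other nuclear receptors, NR5A2 and ESRRB among them, and is abundant in ES cells. A small share of ES cells passes at any time through the 2-cell-like state, in which genes of the 2-cell embryo are switched on. There the homeobox factor DUX activates Zscan4 genes, other 2-cell genes and the endogenous retrovirus MERVL, whose long terminal repeat, MT2_Mm, drives many of them.

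The 6 libraries held 13097044 to 15139518 counts over 25574 features, of which 24421 were genes and 1153 were subfamilies of transposable elements and other repeats. Counts in elements made up 5.39% and 5.02% in the controls and 5.57% and 5.98% with hairpin 2. ES cell markers were abundant throughout, with a summed level of 7290 and 7357 CPM (counts per 1e6 counts, after TMM scaling of library sizes) in the controls and 7887 and 7589 CPM with hairpin 2, for 10 markers. Markers of other cell types were also checked. The summed level of 10 fibroblast markers was 813 and 807 CPM in the controls and 725 and 746 CPM with hairpin 2, and none was at 0 in all 6 libraries. The summed level of 9 extraembryonic endoderm markers was 10.8 and 13.4 CPM in the controls and 24.3 and 22.2 CPM with hairpin 2, with Ttr at 0 in all 6 libraries. The 7 trophectoderm markers summed to 19 and 20.3 CPM in the controls and 17.9 and 18 CPM with hairpin 2.

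Nr0b1, the target of the hairpin (chromosome X, 86191775 to 86195947 in mm10), had 2242 and 2179 counts in the controls. With hairpin 2 it had 1031 and 1008 counts. Both knockdown libraries lay far below both controls, and the level was 50.4% of the control level, 77.6 ± 0.15 CPM against 154 ± 5.6 CPM (SD, n = 2 each). The log2 fold change was -0.99 (SE 0.058, adjusted p = 3.4e-13, edgeR's quasi-likelihood F test with Benjamini-Hochberg adjustment over all genes and elements, as for every adjusted p here). Hairpin 1 left 897 and 857 counts, or 39.3% of the control level. Nr0b1 was higher with hairpin 2 than with hairpin 1 by 0.36 on the log2 scale (adjusted p = 4.6e-05), so that hairpin 2 gave the weaker knockdown at the RNA level.

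Among 14038 genes tested, 1676 were called higher with hairpin 2 at an adjusted p under 0.05, which is 11.9% of them, and 1851 were called lower, which is 13.2%. Most changes were small. Of the rises 1009, and of the falls 1386, were 1.5-fold or less. Beyond 2-fold, 392 genes rose and 166 fell, and beyond 4-fold, 179 rose and 22 fell. The large changes were therefore mostly rises, while the median over all genes tested was -0.003. Fewer genes were called by DESeq2, 853 higher and 1080 lower. Without control replicate 1 the count of higher genes was 1097, and without control replicate 2 the counts were 1062 higher and 1214 lower.

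Genes of the 2-cell embryo were among the strongest rises. The list of such genes had 56 names, of which 50 were in the table, and 41 passed the filter on low counts. The other 9 had at most 10 counts in any control or hairpin 2 library. Of the 41, 40 rose and none fell, against 11.9% and 13.2% of all genes tested. The filter lets through genes that are high only in the knockdown libraries, so these 41 are not the whole list. The list was also written with earlier results of these data known, so its share of rises is a description and not a test. Both controls were at 0 counts for 14 of them, another 19 had 1 to 3 counts over both controls, and 8 had more. The median log2 fold change was 7.02 as fitted and 5.87 with the 14 genes at 0 placed at their lower bound, against -0.003 for all genes tested.

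Dux, which encodes the activator at the head of this group, had 0 counts in both controls and 14 and 26 with hairpin 2. The rise was at least 14.6-fold, counted against 3 counts over the control group (adjusted p = 1.0e-05). Dux lies in a repeated array, and reads from its copies can be divided among features in ways the table does not show. Zfp352, a zinc finger gene of the 2-cell embryo, had 0 and 0 against 20 and 16 counts, at least 13.1-fold higher (adjusted p = 1.0e-05). Tcstv1 and Tcstv3, genes of a 2-cell-specific cluster, had 0 counts in the controls. Tcstv1 had 16 and 7 counts with hairpin 2 (at least 8.39-fold, adjusted p = 6.0e-04), and Tcstv3 had 30 and 14 (at least 16-fold, adjusted p = 1.0e-05). In each of these genes both knockdown libraries had counts where both controls had none, although the hairpin 2 replicates lay far apart in Dux, Tcstv1 and Tcstv3.

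The Zscan4 family encodes SCAN domain zinc finger proteins that act in telomere maintenance and are used as the standard markers of the 2-cell-like state. Zscan4c had 1 and 0 counts in the controls against 290 and 361 with hairpin 2, a ratio of 712 with a 95% exact interval of 127 to 28170 that covers counting error alone. Zscan4d had 1 and 2 against 331 and 332 counts, a ratio of 242 (interval 82.4 to 1175). Zscan4f had 4 and 2 against 531 and 531 counts, a rise of 7.54 on the log2 scale (SE 0.20, adjusted p = 1.4e-20). Zscan4a, with 4 and 1 against 320 and 304, and Zscan4b, with 1 and 1 against 351 and 321, behaved alike in these counts. In all 5 genes both knockdown libraries lay far above both controls. The hairpin 2 replicates were close together except in Zscan4c, at 21.8 and 27.8 CPM. Both hairpin 2 libraries lay above both controls in 1674 of the 1676 genes called higher, so separation alone is not particular to this family. The copies are near-identical, so that counts may be split between them and single family members are uncertain.

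The promoters show how alike the copies are. RefSeq windows of 300 bases (GRCm38.p6, the build that mm10 denotes), from 250 before to 50 after the gene start, were read in the direction of transcription for Zscan4c and Zscan4d and for Zscan4f, the copy with the most counts. All 3 carry the motif AAGGTCA, or TGACCTT on the other strand. That motif is the core of the site bound by orphan receptors such as NR5A2 and ESRRB, which DAX1 can repress, and it stands in capitals below.
Zscan4c, chr7:11005495-11005794, plus strand: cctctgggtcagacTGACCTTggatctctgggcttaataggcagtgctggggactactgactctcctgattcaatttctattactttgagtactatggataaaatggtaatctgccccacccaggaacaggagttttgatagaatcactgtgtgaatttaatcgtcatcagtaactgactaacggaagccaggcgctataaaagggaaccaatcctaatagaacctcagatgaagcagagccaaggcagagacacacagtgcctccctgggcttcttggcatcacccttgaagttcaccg
Zscan4d, chr7:11166099-11166398, minus strand: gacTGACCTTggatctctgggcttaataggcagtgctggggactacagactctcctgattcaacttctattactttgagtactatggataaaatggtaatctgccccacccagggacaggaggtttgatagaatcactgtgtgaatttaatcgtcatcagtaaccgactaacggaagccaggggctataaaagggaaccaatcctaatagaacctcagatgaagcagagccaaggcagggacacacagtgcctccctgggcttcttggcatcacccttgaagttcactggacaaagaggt
Zscan4f, chr7:11397665-11397964, plus strand: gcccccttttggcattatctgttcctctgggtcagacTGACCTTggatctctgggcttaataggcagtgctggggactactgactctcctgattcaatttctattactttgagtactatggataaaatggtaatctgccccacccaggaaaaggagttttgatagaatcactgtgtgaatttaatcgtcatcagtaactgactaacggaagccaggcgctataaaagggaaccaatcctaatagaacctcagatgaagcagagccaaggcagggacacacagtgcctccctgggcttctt
Aligned without gaps, these windows matched at 97.2% to 99.3% of the bases they share. AAGGTCA on either strand was in the windows of 4 of 19 tested 2-cell genes that have one, and all 4, Zscan4b, Zscan4c, Zscan4d and Zscan4f, are copies of 1 family. It was in 4.65% of the windows of genes called higher and 3.49% of those called lower, against 4.0% for all genes tested and 4.72% of all 32851 windows. The longer TCAAGGTCA, which contains the shorter motif, was in none of the windows of these 19 genes and in 0.423% of all windows. Among genes with a window, 8 called higher and 3 called lower had the longer motif. These are 0.642% and 0.214%, against 0.315% for all genes tested. A match describes letters and not a bound site.

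Other multicopy families of the 2-cell embryo were switched on alongside. The Usp17l genes encode deubiquitinases. Usp17lc had 0 and 0 counts in the controls and 75 and 65 with hairpin 2, at least 51.0-fold higher (adjusted p = 5.1e-11), while Usp17la went from 0 and 1 to 88 and 77 counts and Usp17le from 1 and 1 to 131 and 137. Gene models without a known role were among the highest: Gm20767, named after its values were seen, had 0 and 0 against 167 and 188 counts, at least 129-fold higher (adjusted p = 4.0e-15). Gm6763 had 2 and 0 against 347 and 316 counts, and its counts were identical to those of Gm21312 in every library, so that the pair may be 1 set of reads. Gm5662 had 4 and 2 against 381 and 383 counts (log2 fold change 7.06, SE 0.24, adjusted p = 2.0e-18). The exception among the 41, named after its values were seen, was Eif1a, a translation initiation factor gene with many related copies, at 3780 and 3492 counts in the controls and 3607 and 3381 with hairpin 2 (log2 fold change 0.07, adjusted p = 0.31). Without Eif1a, the list summed to 67 and 61 counts in the controls and 4873 and 4752 with hairpin 2, or 4.48 and 4.42 CPM against 366 and 366 CPM. In bulk RNA, more cells in the 2-cell-like state and more RNA in each such cell cannot be told apart.

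**Figure D1:**
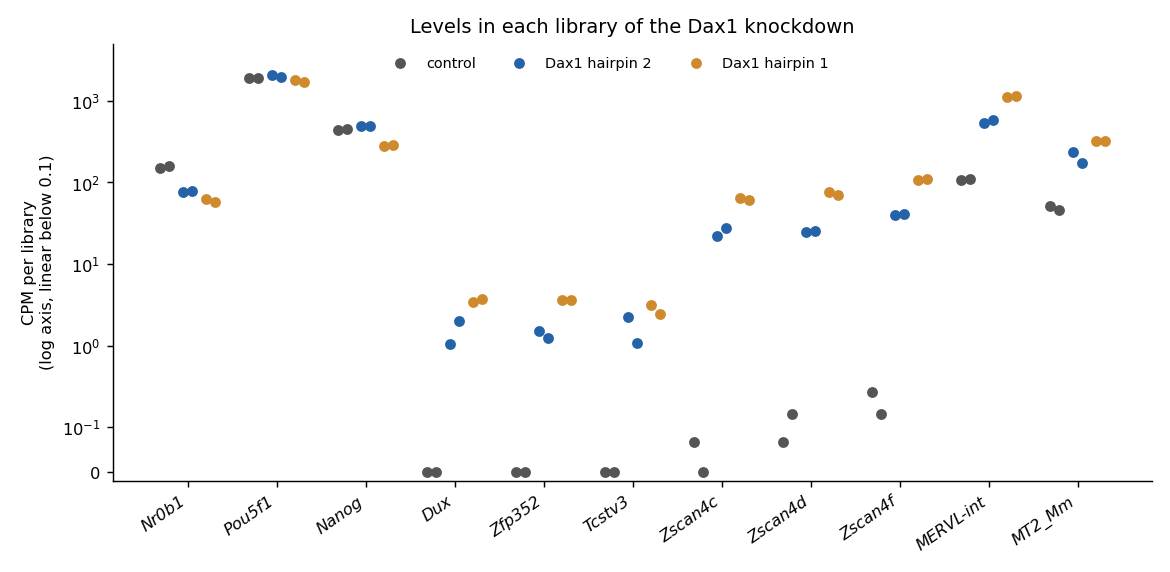
Level in CPM in each of the 6 libraries (points, log axis that turns linear below 0.1 so that 0 can be shown) for Nr0b1, 2 pluripotency genes, 6 genes of the 2-cell embryo and 2 elements, in control, hairpin 2 and hairpin 1. Hairpin 2 points of the 2-cell genes lie far above the controls, which are at 0 for Dux, Zfp352 and Tcstv3, and mostly below those of hairpin 1.

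Across the whole table, 32 genes had at most 3 counts in each control and at least 20 in each hairpin 2 library, and none showed the reverse. Of the 32, 22 were in the 2-cell list, which was itself written with earlier results of these data known. Another 5 were other gene models, and the last 5 were Acer1, Adcy2, Cacna1s, Dcc and Trim43a, named after their values were seen. Trim43a, a tripartite motif gene of the early embryo, had 0 and 2 against 29 and 20 counts (adjusted p = 2.3e-05). BB287469, one of the Eif1a-related genes, went from 0 and 1 to 80 and 75 counts (a ratio of 170, with a 95% exact interval of 29.99 to 6740). Fmr1nb, an X-linked gene of the testis, had 13 and 12 against 158 and 127 counts (log2 fold change 3.63, SE 0.24, adjusted p = 5.0e-12). With gene models left out and a mean level of 2 CPM or more required over the 4 libraries, it was the largest rise that is neither in the 2-cell list nor on chromosome Y.

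Elements followed. MERVL-int, the internal part of MERVL, had 1618 and 1525 counts in the controls and 7041 and 7680 with hairpin 2. That is 109 ± 1.6 CPM against 560 ± 44 CPM (SD, n = 2 each), a rise of 2.36 on the log2 scale (SE 0.052, adjusted p = 1.5e-22), and the groups were well apart. MT2_Mm, its long terminal repeat, had 759 and 643 against 3139 and 2248 counts, 2.07 on the log2 scale (SE 0.090, adjusted p = 4.7e-16), with a wider gap between the hairpin 2 libraries than between the controls. MT2B1, a related repeat named after its values were seen, had 38.6 and 33.3 CPM in the controls and 74.8 and 81.7 CPM with hairpin 2 (log2 fold change 1.12, adjusted p = 5.0e-12). Of the 6 tested subfamilies whose names begin with MT2, these and 1 more rose, and the median was 0.21.

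Of 827 element subfamilies tested, 186 were called higher, 22.5%, and 11 were called lower, 1.33%. The median log2 fold change of the elements was 0.19, against -0.003 for genes. The share of counts in elements was lowest in control replicate 2 and highest in hairpin 2 replicate 2, and its part in these calls was not tested. Without control replicate 2 the higher elements numbered 90, and without hairpin 2 replicate 2 they numbered 103. DESeq2 called 85 higher and 3 lower. The lower elements numbered 3 without hairpin 2 replicate 1 and 7 without control replicate 2.

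Young LINE-1 subfamilies, the autonomously copying elements of the mouse, moved as a group, since all 6 tested L1Md subfamilies rose, with a median of 0.57. L1Md_T had 8126 and 7099 counts in the controls and 10669 and 11792 with hairpin 2 (log2 fold change 0.69, adjusted p = 2.2e-11). L1Md_A had 7714 and 7129 against 10327 and 11505 (0.69, adjusted p = 2.4e-11). Among all L1 subfamilies 45 of 119 rose and none fell, with a median of 0.23. In the ERVK family 61 of 251 rose and 5 fell, in ERV1 17 of 84 rose and 2 fell, in ERVL 11 of 66 rose and 1 fell, and in ERVL-MaLR 27 of 87 rose and 2 fell. The shares of rises in ERVK and ERV1 are near the 22.5% of all elements. Not all abundant ERVK elements followed the rises. IAPEz-int, the body of intracisternal A particles, fell from 3324 and 3056 to 2190 and 2394 counts (log2 fold change -0.35, adjusted p = 1.9e-05). MMETn-int, an early transposon, fell from 88778 and 76998 to 61335 and 65426 counts (-0.26, adjusted p = 8.9e-06).

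Further elements rose that are outside the MERVL group. RMER15 had 1893 and 1569 counts in the controls and 3352 and 3265 with hairpin 2, a log2 fold change of 1.07 (adjusted p = 1.0e-14) beside 0.28 for hairpin 1. ERVB4_2-LTR_MM had 17 and 11 against 61 and 56 counts (2.18, adjusted p = 2.6e-06). GSAT_MM, the major satellite of pericentromeric heterochromatin, had 103 and 73 against 184 and 183 counts (1.19, adjusted p = 3.1e-06). B2_Mm1a, a short interspersed element transcribed by RNA polymerase III, had 6586 and 4903 against 8544 and 8391 counts (0.69, adjusted p = 5.8e-09). In each the knockdown libraries lay above both controls, as in 185 of the 186 elements called higher. MER50B, an ERV1 repeat, was the largest fall among elements whose mean level was 2 CPM or more, with 354 and 293 against 156 and 146 counts (-0.97, adjusted p = 4.3e-07). RMER15, GSAT_MM, B2_Mm1a, IAPEz-int, MMETn-int and the L1Md subfamilies were named after their values were seen.

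**Figure D2:**
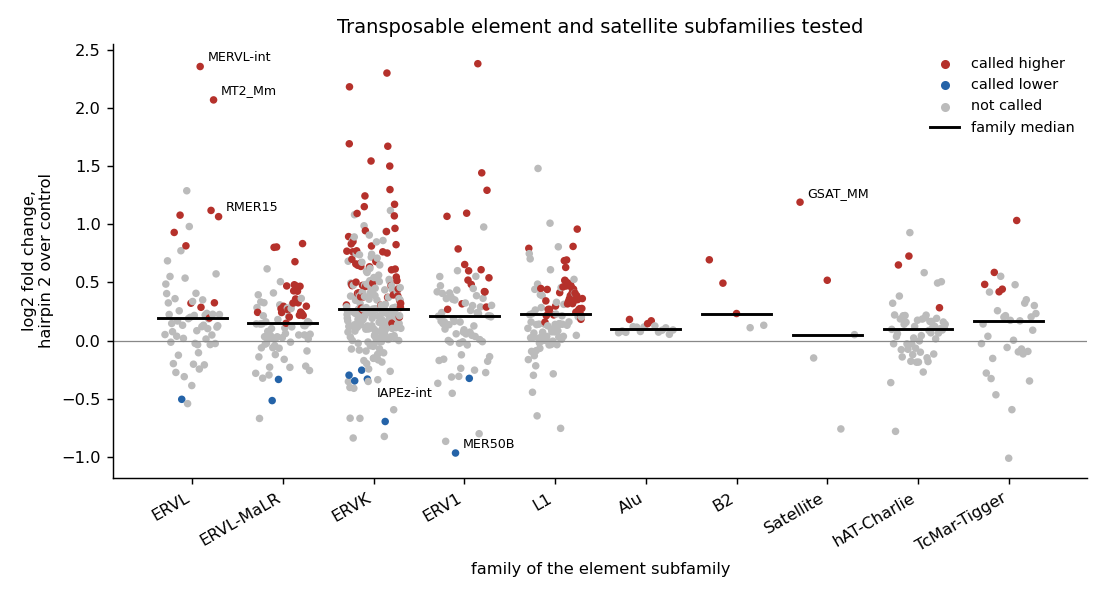
Log2 fold change of hairpin 2 over control (vertical axis) for every tested subfamily in 10 element families (points, coloured by call at an adjusted p under 0.05, black lines are family medians). Most called subfamilies are above 0, and MERVL-int and MT2_Mm, at 2.36 and 2.07, are the highest in ERVL.

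Genes on chromosome Y and the medians of chromosomes 1 and 19 also separated the controls from the knockdown libraries. Ddx3y, a Y-linked RNA helicase gene active in most male cells, had 7 and 7 counts in the controls, 214 and 254 with hairpin 2 and 723 and 817 with hairpin 1. Eif2s3y, a Y-linked translation initiation factor gene, had 60 and 40 counts in the controls, 335 and 367 with hairpin 2 and 834 and 881 with hairpin 1. Uty and Uba1y, at 3 and 11 and at 7 and 2 counts in the controls, had 96 and 106 and 56 and 90 with hairpin 2. These 4 Y-linked genes were thus low in both controls, intermediate with hairpin 2 and highest with hairpin 1. The cause of that order was not tested.

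Over genes above 8 CPM, the median log2 fold change was -0.18 on chromosome 1 and -0.27 on chromosome 19, while the medians of the 18 other chromosomes with enough genes, X among them, lay between -0.032 and 0.015. On chromosome 1, 241 of 514 such genes were called lower, and on chromosome 19, 217 of 322. With hairpin 1 the same chromosomes had medians of -0.35 and -0.30. Over all genes tested, chromosomes 1 and 19 held 8.80% of the genes and 510 of the lower calls, or 27.6%, but only 57 of the higher ones. With their genes left out and p-values adjusted again, an alternative added after seeing the data, 1587 genes were higher and 1313 lower. The cause of these shifts was not tested, and the shift of a chromosome cannot be told apart from the change of a single gene on it. Named genes on these chromosomes are marked as such below, and counts of rises and falls in the gene lists below stand against 11.9% and 13.2% of all genes tested.

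**Figure D3:**
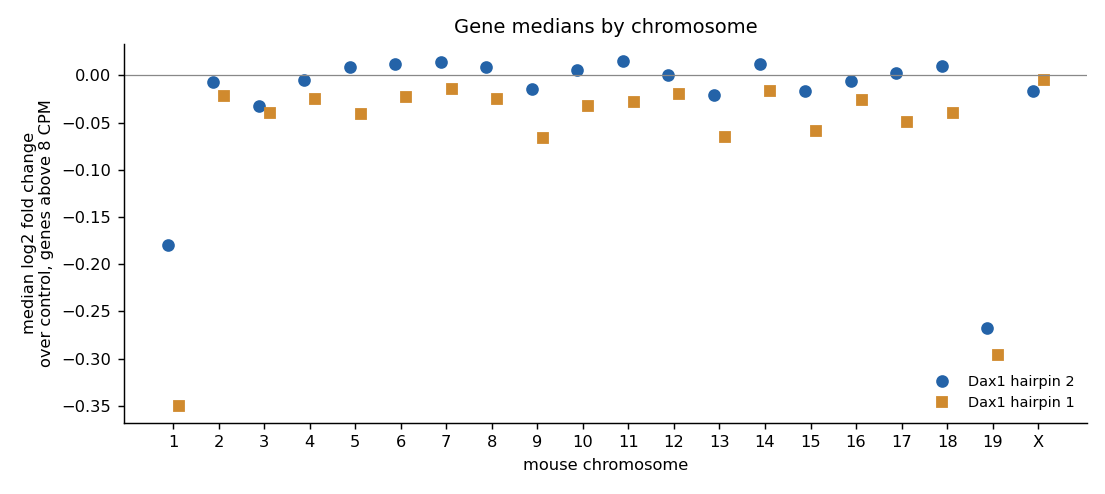
Median log2 fold change over control of the genes above 8 CPM on each mouse chromosome, for hairpin 2 (circles) and hairpin 1 (squares), which share the controls. Chromosomes 1 and 19 lie at -0.18 and -0.27 for hairpin 2, below all other chromosomes shown.

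Core pluripotency genes were close to their control level with hairpin 2. Pou5f1, which encodes OCT4, had 28264 and 26242 counts in the controls and 27911 and 25819 with hairpin 2, a step of 0.11 on the log2 scale (SE 0.037, adjusted p = 0.034). Nanog had 6630 and 6175 against 6590 and 6419 counts (0.15, adjusted p = 0.0097), and Zfp42, or Rex1, had 9199 and 8330 against 9432 and 8669 (0.18, adjusted p = 0.0029). The counts of the groups overlap in these 3 genes, and the steps appear once counts are scaled to the smaller hairpin 2 libraries. The call of Nanog was lost without either control library (adjusted p = 0.094 and 0.067), and that of Zfp42 without control replicate 2 or hairpin 2 replicate 1 (0.057 and 0.069). That of Pou5f1 was lost without either control or hairpin 2 replicate 1 (0.18, 0.15 and 0.30, as adjusted p). It was also lost with DESeq2 (0.090) and with a filter of at least 1 CPM in 2 libraries (0.0501). Sox2, at 8050 and 7854 against 6813 and 6838 counts, did not pass the test (-0.09, adjusted p = 0.13). Klf4 had 2613 and 2429 against 2104 and 2094 counts (-0.13, adjusted p = 0.066) and did not pass either.

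The receptors that DAX1 binds and other naive genes moved in both directions. Esrrb, which encodes an orphan receptor of the naive network, fell from 7392 and 7086 to 5407 and 5394 counts (log2 fold change -0.29, SE 0.044, adjusted p = 1.2e-05). Nr5a2, on chromosome 1, fell from 1085 and 999 to 819 and 798 counts (-0.24, adjusted p = 0.0080), a step near the median of its chromosome, and its call was lost without either control (adjusted p = 0.052 both times) and with DESeq2 (0.059). Esrra, on chromosome 19, encodes an estrogen-related receptor and fell by 0.52. Among 22 tested genes linked to DAX1, Nr0b1 included, 2 rose and 6 fell, 9.09% and 27.3% against 11.9% and 13.2% of all genes, with a median of 0.0002. The rises were Rarg (0.38) and Rxra (0.55), which encode retinoid receptors. Of the other retinoid receptor genes in this list, Rxrb fell (-0.25) and Rara was not called (0.04). Trim66, which the series title names and which was added after its values were seen, had 2 and 4 counts in the controls and 7 and 10 with hairpin 2 (1.59, adjusted p = 0.12), and was not called.

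Among 40 tested naive pluripotency genes 15 rose and 12 fell, more than the 11.9% and 13.2% of all genes but with a median of 0.04. Nr0b1, the target of the hairpin, is in this list and among the falls, and 4 of the falls were on chromosomes 1 and 19. Tbx3, a T-box factor of naive cells, rose from 1009 and 870 to 1354 and 1238 counts (log2 fold change 0.59, SE 0.065, adjusted p = 8.2e-08). Jam2, a junctional adhesion gene, rose by 0.80 (adjusted p = 5.9e-12). Nodal, a ligand of the TGF-beta family that keeps epiblast identity, rose from 875 and 731 to 1659 and 1590 counts (1.15, SE 0.062, adjusted p = 6.0e-14). Tfcp2l1, a naive factor on chromosome 1, fell from 4519 and 4120 to 2387 and 2462 counts (-0.70, SE 0.048, adjusted p = 1.1e-11), a larger step than its chromosome's median. In the Nodal and TGF-beta list 5 of 24 rose and 7 fell, with Tdgf1, the Nodal coreceptor, up by 0.42 and the ligand gene Tgfb2 (chromosome 1) down by 1.90.

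Known regulators of the 2-cell-like state moved in small steps. Of 41 tested, 9 rose and 10 fell (median 0.02), and 4 of the falls were on chromosomes 1 and 19. Without control replicate 1, control replicate 2 or hairpin 2 replicate 1 the falls numbered 5. Dppa2, which encodes an activator upstream of Dux, rose from 2242 and 1877 to 3046 and 2761 counts (0.63, SE 0.054, adjusted p = 1.0e-09). Nelfa, a maternal factor that can drive the state, rose by 0.32 (adjusted p = 1.2e-04), and Trim28, which represses retroelements, rose by 0.28 (adjusted p = 1.2e-06). Kat5, the TIP60 acetyltransferase gene on chromosome 19, fell by 0.53.

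Of 40 tested genes of retroelement silencing, DNA methylation genes included, 7 rose and 7 fell (median 0.01). Falls numbered 4 without control replicate 1 or hairpin 2 replicate 1. Dnmt3l, the cofactor of the de novo methyltransferases, rose from 4051 and 3716 to 6605 and 6348 counts (log2 fold change 0.87, SE 0.049, adjusted p = 1.7e-13). Dnmt3a, a de novo methyltransferase gene, rose from 2724 and 2484 to 3697 and 3541 (0.60, adjusted p = 1.2e-10). Zfp57, which guards imprints, rose by 0.42, and Hells, a remodeller gene on chromosome 19, fell by 0.27, which equals the median of its chromosome to 2 decimals. In the formative and primed epiblast list 8 of 28 rose, 4 without control replicate 1, and 6 fell (median -0.01). Pim2, a kinase gene, rose from 881 and 726 to 1333 and 1390 counts (0.89, adjusted p = 1.7e-11), and Cldn6, a tight junction gene, fell by 0.57.

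Germline genes that promoter methylation keeps silent in most cells were next. Of 31 tested, 13 rose and 1, Piwil2, fell (median 0.40). That fall was not called without control replicate 2 or hairpin 2 replicate 2, and DESeq2 called 7 higher and 0 lower. Tuba3a, a testis tubulin gene, rose from 112 and 135 to 328 and 310 counts (log2 fold change 1.5, SE 0.13, adjusted p = 1.5e-09). Dazl, a translation regulator of germ cells, rose from 76 and 73 to 183 and 149 counts (1.28, adjusted p = 3.1e-06), and Hormad1, a meiotic axis gene, rose by 1.22. Of these 31 genes, 13 were higher with hairpin 2 than with hairpin 1 and 2 were lower, against 18.2% each way of all genes and elements tested. Of 6 tested maternal genes 2 rose and 1 fell, and the falls numbered 2 without control replicate 1. Zp3, a zona pellucida gene, rose from 41 and 45 to 109 and 108 counts (1.46), Khdc3, of the subcortical maternal complex, rose by 0.40, and Dppa3, or Stella, fell from 156 and 120 to 67 and 63 counts (-0.95, adjusted p = 1.5e-04).

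In the primitive endoderm list 9 of 28 rose, or 32.1% against 11.9% of all genes, and 4 fell, or 14.3%, which is near the 13.2% of all genes (median 0.29). DESeq2 called 5 higher. The falls include Krt8 and Krt18, given below with the trophectoderm genes. The list summed to 1555 and 1532 CPM in the controls and 1479 and 1519 CPM with hairpin 2. Low-level markers were among the rises, all named after their values were seen. Gata6 had 21 and 22 counts in the controls and 43 and 46 with hairpin 2 (log2 fold change 1.17, adjusted p = 0.0077). Pdgfra had 8 and 8 against 35 and 35 (2.24, adjusted p = 2.9e-04). Sox7 (1.28) and Sox17 (1.99, on chromosome 1) were called higher as well, at up to 53 counts in any library. The calls of Gata6 and Sox7 were lost when 1 library was left out (Gata6 without control replicate 1 or hairpin 2 replicate 2, adjusted p = 0.065 and 0.060, and Sox7 without control replicate 2 or hairpin 2 replicate 2, 0.067 and 0.092). That of Sox17 was lost without control replicate 1, control replicate 2 or hairpin 2 replicate 2 (0.060, 0.11 and 0.19), and DESeq2 called none of these 3. The extraembryonic endoderm markers summed above include Gata6, Pdgfra, Sox7 and Sox17, so their higher sum with hairpin 2 is not separate evidence. The part of admixed endoderm cells in these rises was not tested. Better expressed were Lrp2, the megalin gene, up by 0.70, Sparc, a matrix glycoprotein gene, up by 0.62, and Lama1, which encodes a laminin chain of basement membranes, up by 0.70.

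Of 24 tested trophectoderm genes 12 fell, against 13.2% of all genes, and 2 rose, 8.33% against 11.9% (median -0.38). The rises numbered 1 without control replicate 1. Krt8 and Krt18, which encode the paired keratins of simple epithelia, showed large falls. Krt8 had 1907 and 1626 counts in the controls and 697 and 672 with hairpin 2 (-1.24, SE 0.060, adjusted p = 5.3e-15). Krt18 had 1001 and 838 against 321 and 264 (-1.52, adjusted p = 6.7e-14). Tead4, the transcription factor gene needed for trophectoderm, fell from 255 and 229 to 82 and 91 counts (-1.35, SE 0.15, adjusted p = 1.1e-07), and Cldn4, a tight junction gene, fell by 0.76. Lgals3, a galectin gene, rose by 1.08. In the list of germ layer genes 9 of 27 rose and 4 fell (median 0.35), with 5 rises without control replicate 1 or with DESeq2. Tubb3, a neuronal tubulin gene, rose by 0.99 and Nes, or nestin, by 0.45, while Pax6, a neural and eye factor gene, fell from 304 and 268 to 113 and 97 counts (-1.31, adjusted p = 2.7e-08).

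Genes of the actin cytoskeleton were among the largest falls. Acta2, the smooth muscle actin gene on chromosome 19, had 464 and 445 counts in the controls and 73 and 69 with hairpin 2, or 17.1% of the control level (log2 fold change -2.55, SE 0.12, adjusted p = 4.0e-15). Tagln, or transgelin, fell from 1175 and 1044 to 404 and 331 counts (-1.46, SE 0.075, adjusted p = 1.7e-14). Thbs1, a matrix glycoprotein gene, fell from 757 and 730 to 277 and 287 (-1.27, adjusted p = 3.2e-12), and Cyr61, a matrix-associated target of the YAP pathway, fell from 511 and 486 to 268 and 265 (-0.77, adjusted p = 1.1e-07). Every knockdown library lay below every control in these 4 genes, as in 1849 of the 1851 genes called lower. Of 24 tested fibroblast and mesenchymal genes 11 fell, 7 without hairpin 2 replicate 2, and 3 rose (median -0.36). Of the 11 falls, 3 were on chromosomes 1 and 19. Vim, or vimentin, went the other way, from 1820 and 1672 to 2823 and 2605 counts (0.77, SE 0.051, adjusted p = 6.3e-12). The 10 fibroblast markers summed above, Acta2 and Vim among them, were detected in the controls at very unequal levels. Col3a1 was at 1.26 CPM and Col1a1 at 5.52 CPM, against 121 CPM for Vim. Of the 8 that were tested, 3 rose and 5 fell with hairpin 2, so the sum alone does not show how many fibroblasts were present. The part of admixed cells in these falls was not tested.

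Skor1 and Wnt7b, which are outside the lists, also fell steeply. Skor1, a SKI family corepressor gene, had 406 and 406 counts in the controls and 101 and 51 with hairpin 2 (log2 fold change -2.29, adjusted p = 4.8e-11), and 43 and 33 with hairpin 1. Egln3, which encodes an oxygen-sensing prolyl hydroxylase, fell from 898 and 763 to 236 and 221 counts (-1.73, SE 0.11, adjusted p = 1.2e-12), with 241 and 341 for hairpin 1. Wnt7b, a WNT ligand gene, fell from 237 and 222 to 67 and 60 (-1.72, adjusted p = 2.0e-09). In the glycolysis and hypoxia list, to which Egln3 belongs, 8 of 36 rose, 5 without hairpin 2 replicate 1, and 11 fell (median 0.01). Glucose transporter genes Slc2a1 and Slc2a3 fell by 0.43 and 0.42, Pdk1, a kinase gene that limits pyruvate oxidation, by 0.44, and Pfkp, a phosphofructokinase gene, rose by 0.47.

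Of 31 tested p53 targets 22 rose and 1 fell (median 0.33), against 11.9% and 13.2% of all genes tested. Trp53inp1, which promotes p53 activity, rose from 1282 and 1164 to 1753 and 1798 counts (log2 fold change 0.67, SE 0.055, adjusted p = 3.3e-10). Eda2r, a death receptor gene, rose by 0.71, Plk2, a stress-induced kinase gene, by 0.60, and Ei24 by 0.59. The fall, named after its value was seen, was Cdkn1a, the p21 cell cycle inhibitor gene and a classical p53 target, from 595 and 551 to 453 and 448 counts (-0.22, adjusted p = 0.044), and its call was lost with any 1 of the 4 libraries left out (adjusted p from 0.11 to 0.16), with scaling by genes alone (0.0502) and with DESeq2 (0.19). Of 36 genes of the integrated stress response 16 rose and 2 fell (median 0.13). Falls numbered 1 without control replicate 1, without hairpin 2 replicate 1 or with DESeq2. Slc7a3, a cationic amino acid transporter gene, rose by 0.59, Shmt2, of mitochondrial folate metabolism, by 0.44, and Hspa5, the chaperone BiP gene, by 0.27. Psat1, of serine synthesis (chromosome 19), fell by 0.36.

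Genes of division and ribosome assembly moved in small steps. Of 32 mitosis genes none rose and 8 fell (median -0.07), 4 of them on chromosomes 1 and 19. Kif11, a spindle motor gene on chromosome 19, fell by 0.44, Cenpf, a kinetochore gene on chromosome 1, by 0.36, and Anln, the cytokinesis gene on chromosome 9, by 0.32. In ribosome biogenesis 9 of 35 rose and 4 fell (median 0.01), with all 4 falls on chromosomes 1 and 19. These counts were unsteady: 3 to 5 rose without control replicate 1, control replicate 2 or hairpin 2 replicate 1, and 1 or 2 fell without control replicate 1, hairpin 2 replicate 1 or hairpin 2 replicate 2. DESeq2 called 5 higher and 2 lower. Nop14, of the small ribosomal subunit pathway, rose by 0.22, and Ncl, or nucleolin, on chromosome 1, fell by 0.14, a call lost without control replicate 1 (adjusted p = 0.067). For cholesterol and fatty acid synthesis 3 of 31 rose, none without control replicate 2 or hairpin 2 replicate 1 and 1 with DESeq2, and 5 fell (median 0.01), led by Scd1, the stearoyl desaturase gene on chromosome 19, down by 0.64.

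Signalling and imprinted genes gave mixed counts. Of 25 ERK target genes 5 rose and 9 fell (median -0.07), with 3 rises without control replicate 1 and 2 without hairpin 2 replicate 2. Dusp5 (chromosome 19) and Dusp1, which encode phosphatases that limit MAP kinase signalling, fell by 0.90 and 0.55, and Egr1, an immediate early gene, rose by 0.53. For retinoic acid 4 of 22 rose and 4 fell, 2 without control replicate 1 or with DESeq2 (median 0.08). Crabp1, a retinoic acid binding protein gene, rose from 97 and 100 to 170 and 153 counts (log2 fold change 0.84), and Cyp26a1, the retinoic acid degrading enzyme gene on chromosome 19, fell from 37 and 36 to 12 and 11 (-1.53, adjusted p = 0.0022). Of 26 tested interferon-stimulated genes 4 rose and 3 fell (median -0.002), with 1 fall without either control or without hairpin 2 replicate 1, 0 falls with DESeq2 and 2 rises without control replicate 2. H2-D1, a class I histocompatibility gene, rose by 0.60 and Ifitm1 by 0.28, and Irf1, a transcription factor gene, fell by 0.33, a call lost without either control, without hairpin 2 replicate 1 and with DESeq2 (adjusted p from 0.052 to 0.41). Imprinted genes split evenly, 9 of 44 up and 9 down (median 0.06). Igf2, the paternally expressed growth factor gene, fell from 454 and 391 to 136 and 142 counts (-1.47, SE 0.10, adjusted p = 1.8e-11), and Phlda2, which limits placental growth, fell by 0.86. Cd81, Snrpn and Grb10 rose by 0.50, 0.49 and 0.45.

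**Figure D4:**
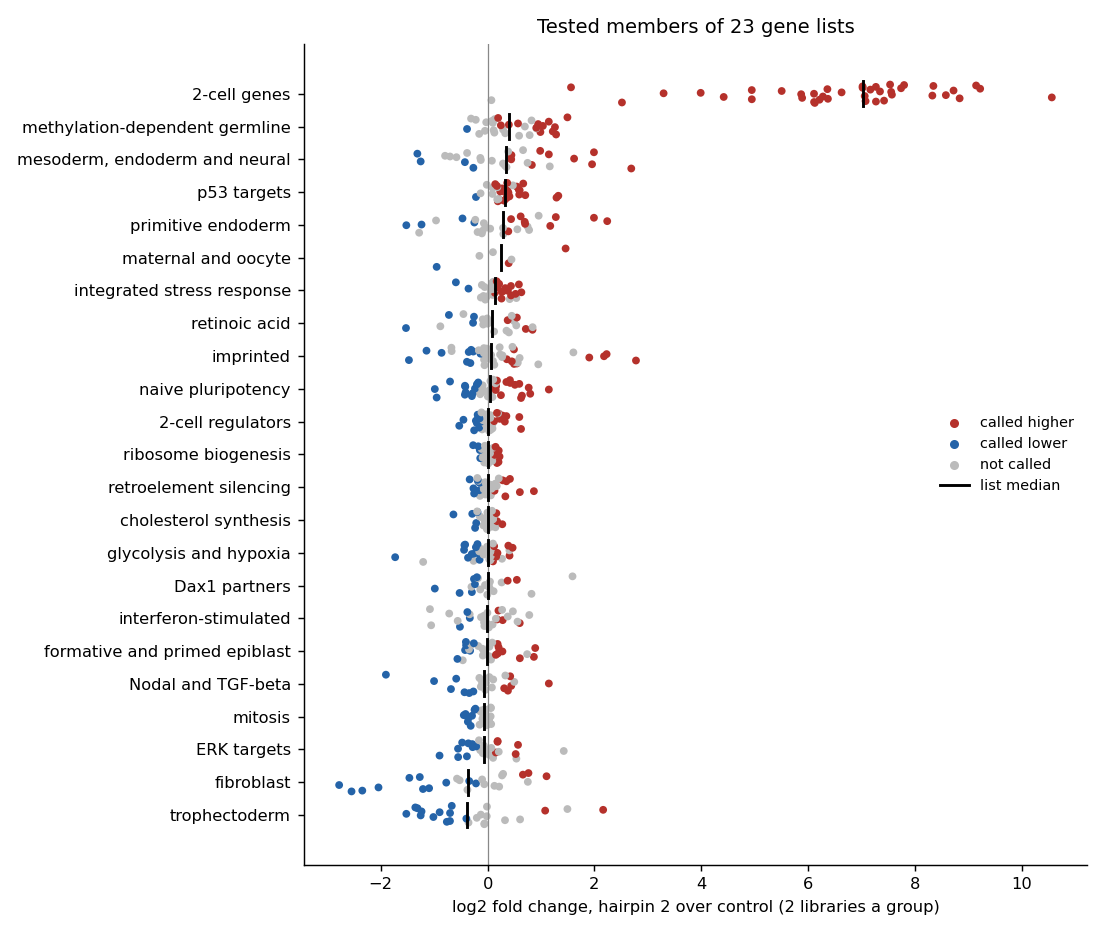
Log2 fold change of hairpin 2 over control (horizontal axis) for the tested members of 23 gene lists, coloured by call at an adjusted p under 0.05, with list medians as black lines. The 2-cell list stands apart at a fitted median of 7.02, where values of genes at 0 in the controls depend on the fit, while the other medians lie between -0.38 and 0.40.

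Hairpin 2 and hairpin 1 were also compared directly in the same fit. Of 14865 genes and elements tested, 2703 were higher with hairpin 2, 18.2%, and 2706 were lower, 18.2%. Genes alone gave 2522 higher and 2670 lower. Scaled by library totals alone, 1872 genes were higher and 3241 lower, so the balance of directions depends on the scaling. Since both hairpins share the controls, their changes against control are only set side by side here. The 2-cell genes were lower with hairpin 2 in 34 of 41 cases and higher in 1. Zscan4c had 918 and 896 counts with hairpin 1 against 290 and 361 with hairpin 2 (difference -1.33 on the log2 scale, adjusted p = 1.3e-11). Dux had 49 and 54 against 14 and 26 (-1.21, adjusted p = 0.0063), and MERVL-int had 16043 and 16913 against 7041 and 7680 (-1.02, adjusted p = 6.9e-16). Each of these stood lower with hairpin 2, the weaker knockdown, than with hairpin 1, and so did the Y-linked genes given above. Any link of this order to the Nr0b1 level was not tested. Tcstv1 and Tcstv3 were not told apart between hairpins (-0.33 and -0.74, adjusted p = 0.66 and 0.12). The gene that was higher was Usp26, named after its values were seen, an X-linked deubiquitinase gene of the testis, at 22 and 23 counts in the controls, 21 and 24 with hairpin 1 and 60 and 62 with hairpin 2 (difference 1.58, adjusted p = 5.5e-05).

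Of 40 tested naive pluripotency genes, 32 were higher with hairpin 2 than with hairpin 1 and 2 were lower, against 18.2% each way of all genes and elements tested. Nr0b1 itself is among the 32. Esrrb, at 81.6% of the control level with hairpin 2 and 41.2% with hairpin 1, was below control with both, while Tbx3, Nanog and Khdc3 were above control with hairpin 2 and below it with hairpin 1. Tbx3 had 317 and 348 counts with hairpin 1 against 1354 and 1238 with hairpin 2, a difference of 2.11 (adjusted p = 2.9e-18). Esrrb had 2916 and 3115 against 5407 and 5394 (0.98, adjusted p = 9.9e-16), and Nanog 4046 and 4290 against 6590 and 6419 (0.79, adjusted p = 4.4e-14). Khdc3 had 211 and 211 with hairpin 1 against 1219 and 1220 with hairpin 2 (2.67, adjusted p = 5.6e-20). Alg13, a glycosylation enzyme gene, and Inhbb, the activin beta B gene on chromosome 1, were far lower with hairpin 1 than in the other libraries. Alg13 had 465 and 521 counts with hairpin 1 against 2789 and 2918 with hairpin 2, and Inhbb had 163 and 215 against 1094 and 1093.

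Several named keratin, cytoskeletal and matrix genes that fell with hairpin 2 stood above the control level with hairpin 1. Of 24 tested fibroblast and mesenchymal genes, 21 were lower with hairpin 2 than with hairpin 1 and 1 was higher, against 18.2% each way of all genes and elements tested. Krt8 had 4260 and 4220 counts with hairpin 1, a difference of -2.49 (adjusted p = 2.2e-22). Tagln had 2467 and 2508 (-2.62, adjusted p = 7.6e-21), and Igf2 1050 and 1102 (-2.81, adjusted p = 6.9e-19). Acta2, at 524 and 527 counts with hairpin 1, was 2.74 lower with hairpin 2 (adjusted p = 1.8e-16). Its change with hairpin 1 against control was not called (0.19, adjusted p = 0.071). Col1a1, a collagen gene, had 98 and 62 counts in the controls, 33 and 30 with hairpin 2 and 329 and 368 with hairpin 1 (-3.32, adjusted p = 3.1e-14). Cav1, the caveolin gene, had 46 and 33, 9 and 5, and 80 and 92 (-3.45, adjusted p = 4.5e-09). For these 6 genes the 3 groups did not overlap in CPM, with hairpin 2 lowest and hairpin 1 highest. The cause of the opposite directions in the genes other than Acta2, and any link to the Nr0b1 level, was not tested.

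**Figure D5:**
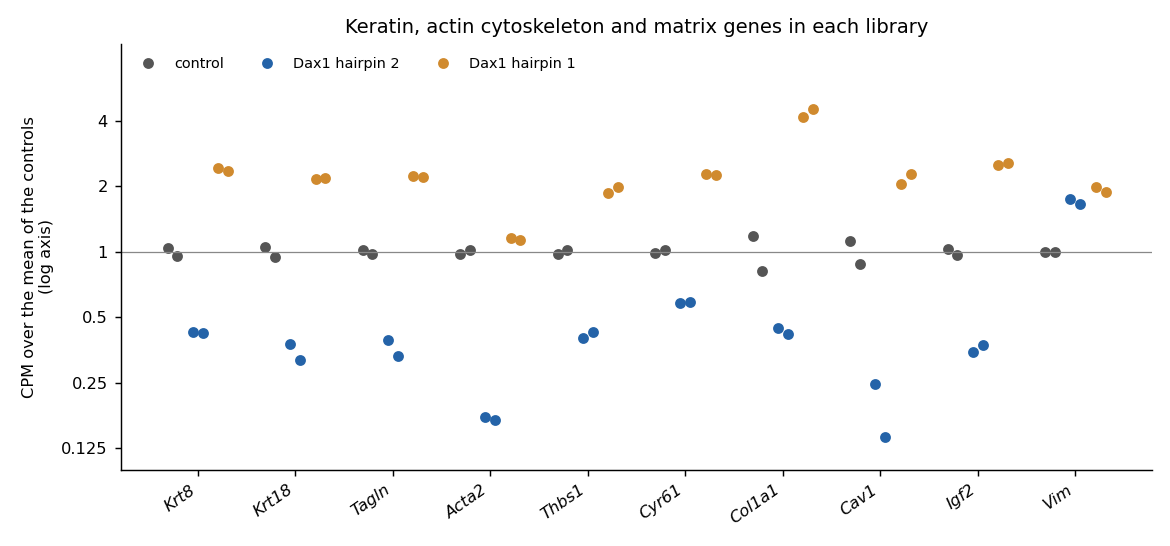
Level in CPM in each library divided by the mean of the controls (log axis) for 10 keratin, actin cytoskeleton, matrix and growth factor genes in control, hairpin 2 and hairpin 1. Hairpin 2 points lie below 1 and hairpin 1 points above 1 in every gene but Vim, where both are above 1.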

How the data were processed

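Total RNA of mouse ES cells was sequenced, and the authors deposited whole-number counts per gene and per repeat element subfamily in 1 table for the control, hairpin 1 and hairpin 2 libraries, 2 each. The submitters' processing notes name HISAT2 2.1.0, Cufflinks 2.2.1 and mm10 among tools for the whole series. No source used here gives the counting tool, the annotation, the use of strand or the handling of multiply matching reads, so overlapping genes and near-identical copies are uncertain. Names of 27 gene features had been turned into dates by a spreadsheet, and 99.5% of gene names were found in the reference gene table.

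From the counts, edgeR 4.0.16 in R 4.3.3 was run on all 6 libraries (filterByExpr, TMM scaling, quasi-likelihood F test, genes and elements together, Benjamini-Hochberg adjusted p under 0.05), and contrasts were taken for hairpin 2 against control and against hairpin 1. A fitted fold change of a gene with 0 control counts depends on the prior count, so a lower bound was computed against 3 counts over the control group, and for 1 to 3 control counts a ratio with a 95% exact binomial interval. The biological coefficient of variation was 0.0392. Replicates differed by more than sampling noise (chi-square per degree of freedom 2.27 to 2.68), so none was counted as a repeat. The steps were tested on simulated data. Alternatives were RLE and library-total scaling, scaling by genes alone, other filters, a fit of 4 libraries, a replicate block, leaving out each library and DESeq2 1.42.0.

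Named genes were Nr0b1, Dux and a set of 2-cell and pluripotency genes, the called genes with the 15 largest rises and the 12 largest falls (mean level 2 CPM or more, gene models left out), 4 elements each way, up to 5 called members of each of 23 lists by adjusted p, and 6 differences each way between hairpins. Any others are said to be named after their values were seen. Members and lists were chosen with earlier results of these data known. Other tables of the series were not used. Results for 1 gene are not reported here.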

Additional observations from a re-analysis of the deposited data

Results flagged for a closer look

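In groups of 2 libraries no single library can be tested for standing apart. The results flagged here are named genes that were called in opposite directions by the hairpins against their shared control and whose difference between the hairpins was itself called by edgeR's quasi-likelihood F test. Differences are hairpin 2 minus hairpin 1 on the log2 scale. Genes of the cytoskeleton, the matrix and secreted factors fell with hairpin 2 and rose with hairpin 1, with differences of -3.45 for Cav1, -3.32 for Col1a1, -2.81 for Igf2, -2.77 for Tgfb2, -2.62 for Tagln and -2.52 for Csf1. Further such differences were -2.22 for Thbs1, -1.96 for Cyr61 and -1.25 for Furin. The keratin genes Krt18 and Krt8 differed by -2.64 and -2.49 and the junction gene Cldn6 by -0.94. The phosphatase genes Dusp5 and Dusp1 differed by -1.65 and -1.23. Smaller differences were -0.60 for the glucose transporter gene Slc2a1, -0.59 for the p53 target Cdkn1a and -0.52 for the serine synthesis gene Psat1.

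Genes that rose with hairpin 2 and fell with hairpin 1 included the maternal gene Khdc3 with a difference of 2.67 and Tbx3 with 2.11. The pluripotency genes Nanog, Zfp42 and Pou5f1 differed by 0.79, 0.63 and 0.21, though their rises with hairpin 2 were small. Lama1 differed by 1.13, Ei24 by 0.78, Pfkp by 0.60 and the imprint factor gene Zfp57 by 0.56. The cause of these opposite directions was not tested.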

How the results depend on the processing

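Leaving out 1 library moved the genes called higher to between 1062 and 1250, those called lower to between 1214 and 1358, and the elements called higher to between 90 and 180 and lower to between 3 and 9. Between hairpins the same gave 1997 to 2049 genes higher and 2035 to 2149 lower. DESeq2 called 853 genes higher and 1080 lower, 85 elements higher and 3 lower, and 1658 genes higher and 1603 lower between hairpins. Without the filter on low counts 18 elements were lower. Other scalings, other filters and the fit of 4 libraries kept every other count of genes or elements within 1.5 times its value. The numbers of the replicates pair nothing in the labels, and deviations of same-numbered libraries correlated at 0.056 between control and hairpin 1, -0.034 between control and hairpin 2 and 0.12 between the hairpins. A fit with the replicate block called 1823 genes higher and 2072 lower, 208 elements higher and 15 lower, and 2751 higher and 2825 lower between hairpins. Leaving out the genes of chromosomes 1 and 19, chosen after seeing the data, gave 1587 genes higher and 1313 lower.

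Among list counts, 507 values under the alternatives stayed within 1.5 times and 45 did not. Among genes and elements named in the text 1592 values kept direction and call, 33 lost the call, 4 gained it and 0 reversed. The gains were all Klf4, with adjusted p from 0.029 to 0.044. Low counts limited the 2-cell genes, of which 14 of 41 tested had no control count, and the maternal list, of which 6 of 24 passed the filter. Whether depth or absent expression was the reason was not tested. With 2 libraries a group the precision of all values is low, and intervals on ratios cover counting error alone.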
